A study of Homo sapiens with 2 samples.

Results

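Genes of glycolysis and of the response to low oxygen were examined as a set of 36, made of 19 enzymes and enzyme regulators of glycolysis, 4 transporters of glucose and lactate, and 13 targets and regulators of the hypoxia-inducible factor (HIF). Members were found as array probes whose annotation names exactly 1 gene, which gave 45 probes for 35 of the 36 genes, out of 31741 probes in all. PGAM1 has no such probe, because its 3 probes also name PGAM4, and no value is given for it. The samples were cells of SAS, an established human line from a squamous carcinoma of the tongue, carrying a short hairpin RNA against ATMIN (shATMIN, 1 sample) and a control called neo (1 sample). ATMIN is a cofactor of the ATM kinase and a regulator of transcription, and the study asked whether lowering it affects cancer progression. Both samples carry the same protocol text of lipid transfection with hairpin plasmids, puromycin selection and growth of resistant clones. Neither the construct of the neo control nor whether a sample was 1 clone or a pool is given in the sources used here. Because there was 1 sample per group, no test was possible, and every difference below describes these 2 samples.

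Glycolysis splits glucose into pyruvate in the cytosol, and tumour cells often run it at a high rate and export the resulting lactate. Phosphofructokinase is its main point of control. HIF is a pair of proteins, an oxygen-regulated alpha subunit such as HIF1A and the partner ARNT. Prolyl hydroxylases of the EGLN family mark the alpha subunit for destruction when oxygen is present, and in hypoxia the pair binds short DNA sites and raises transcription of many glycolytic genes. Squamous carcinomas of the head and neck often contain hypoxic regions.

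Each deposited value is a linear probe intensity, and some are negative. Differences are shATMIN minus neo control on the scale log2(intensity + 1), which understates changes of dim genes, and each gene is given by its brightest probe unless another is named. A gene was compared where its mean level over the samples reached 5.90 on the log2 scale, an intensity of 58.9, which 31 members and 12421 genes in all did. ATMIN, the targeted gene, read 61.5 in the shATMIN sample and 105 in the neo control, a difference of -0.76, and its dimmer probe read 26.5 against 51.5. The median intensity over all probes was 106 in the shATMIN sample and 109 in the neo control, and the upper quartile was 535 against 629. All 8 epithelial and keratinocyte markers with a probe were above the level for comparison, and single ones differed by more than any member. KRT14 read 2555 in the shATMIN sample and 1284 in the neo control (0.99), KRT6A 2024 against 1013 (1.00), and TP63 2060 against 4717 (-1.19). The dimmer TP63 probe read 144 against 150, a difference of -0.06. The summed intensity of the 8 markers was 51482 against 57590. Of the leukocyte markers 2 of 5 were above the level, CD14 at 2602 against 2858 and CD68 at 174 against 272, with a sum of 2812 against 3164, while PTPRC and CD3E were below it. Of the fibroblast markers 3 of 6 were above it, led by COL1A1 at 423 against 459, with a sum of 659 against 692, and COL3A1 and DCN were below it. Of the endothelial markers 3 of 5 were above it. CDH5 at 115 against 175 and VWF at 164 against 184 were lower, and PECAM1 at 85.5 against 77.0 was higher. The sum over the 5 was 417 against 475, and KDR and TIE1 were below the level. No marker was at 0, and the part of these differences in the results was not tested.

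Most members were lower in the shATMIN sample, by modest amounts. Of the 31 compared members 28 were lower and 3 higher, with a median difference of -0.28, a lowest of -0.86 and a highest of 0.12. Over all 12421 compared genes 70.7% were lower and the median was -0.16, so much of this direction was shared by the array as a whole. By a rule of size of 1.5-fold, 6 members were lower and 0 higher, which is 19.4% of the compared members, against 12.2% of all compared genes lower and 1.90% higher. The 6 were PFKL, PFKP, SLC16A1, SLC16A3, PDK1 and HIF1A. None of the 31 reached 2-fold, which 1.34% of all compared genes did in the lower and 0.459% in the higher direction. The 6 comprise 2 phosphofructokinase subunits, both lactate transporters, the kinase PDK1 and HIF1A itself.

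**Figure D1:**
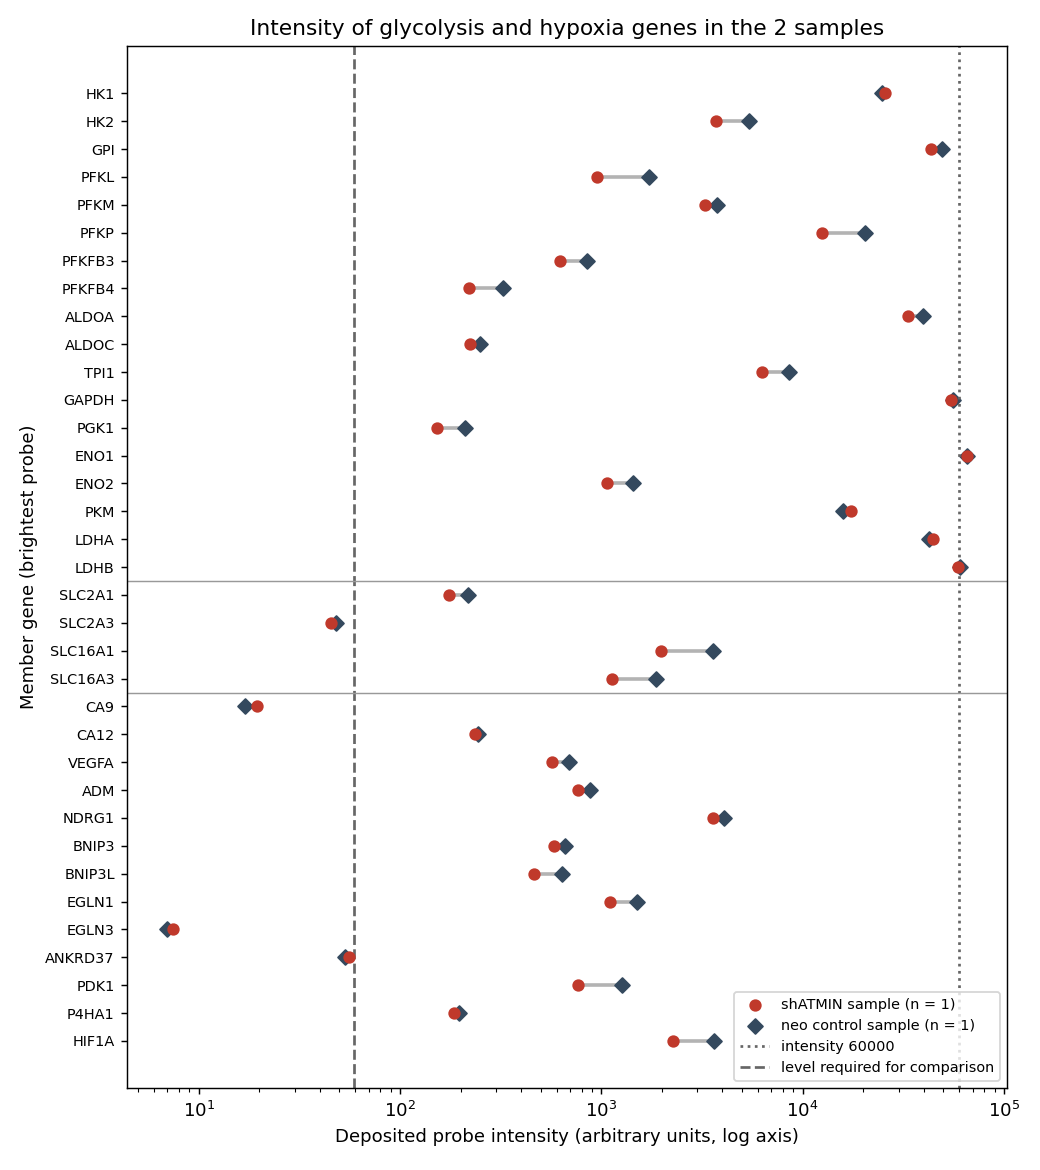
Deposited intensity (horizontal log axis, arbitrary units) of the brightest probe of 35 members in the shATMIN sample (red circles) and the neo control (dark diamonds), 1 sample each, in the order of glycolytic steps, then transporters, then hypoxia genes. The dashed line marks the intensity of 58.9 needed for comparison and the dotted line 60000; the widest gaps are those of PFKL, PFKP, SLC16A1, SLC16A3, PDK1 and HIF1A.

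The first step of glycolysis, phosphorylation of glucose, differed between its isoenzymes. HK2, the inducible hexokinase of many tumours, read 3702 in the shATMIN sample and 5401 in the neo control, a difference of -0.54. HK1, the widely expressed form, read 25587 against 24665, a difference of 0.05. HK2 was thus lower and HK1 slightly higher. GPI, which converts the resulting sugar phosphate for the next step, read 43171 against 49236, a difference of -0.19 that lay close to the median of all genes.

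Phosphofructokinase, the committed step, had the lowest values among the enzymes. PFKL, the liver type subunit, read 948 in the shATMIN sample and 1720 in the neo control, a difference of -0.86 or 1.81-fold. Its second probe read 1041 against 1353, a difference of -0.38 that falls short of 1.5-fold. PFKP, the platelet type subunit, read 12547 against 20365 on its only probe, a difference of -0.70 or 1.62-fold. PFKM, the muscle type, differed least of the 3 subunits, at 3258 against 3760, or -0.21, and its dimmer second probe read 67.0 against 61.5, a difference of 0.12 in the other direction. Of all compared genes, 3.14% were as low as PFKL or lower and 7.32% as low as PFKP or lower.

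The PFKFB enzymes make the sugar bisphosphate that activates phosphofructokinase, and both of those among the members, PFKFB3 and PFKFB4, were lower. PFKFB4 read 220 in the shATMIN sample and 326 in the neo control, a difference of -0.57 that is 1.48-fold. PFKFB3 read 624 against 846, a difference of -0.44. Both lay below the median of all genes and neither reached 1.5-fold.

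The splitting of the sugar and the interconversion of the products showed smaller differences. ALDOA, the main aldolase outside liver and brain, read 33196 in the shATMIN sample and 39672 in the neo control, a difference of -0.26. ALDOC, the brain type aldolase, read 223 against 251, a difference of -0.17. TPI1, which interconverts the triose phosphates, read 6266 against 8571, a difference of -0.45. Over the 11 enzymes and regulators from the hexokinases to TPI1, 10 were lower and the median was -0.44. This is 90.9% lower, against 70.7% of all compared genes with a median of -0.16. With a trend on level removed, as described further on, 9 were lower with a median of -0.17, and with scaling to the 75th percentile 7 were lower with a median of -0.21.

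From GAPDH to lactate dehydrogenase the median of 7 compared enzymes was -0.04, and 5 were lower, or 71.4%, near the 70.7% of all compared genes. With the trend on level removed 2 were lower and 5 higher, with a median of 0.08, and scaling to the 75th percentile gave the same counts with a median of 0.20. The higher ones in both settings include ENO1, GAPDH and LDHB, whose brightness limits their reading, as given below. PGK1, which makes the first ATP of the pathway, read 153 in the shATMIN sample and 210 in the neo control on its only probe, a difference of -0.46. That probe was dim beside those of GAPDH, PKM and LDHA, and whether it reads the main PGK1 transcript was not tested. ENO2, the neuronal type enolase, read 1073 against 1444, a difference of -0.43. These 2 were lower and the other 5 of this group lay between -0.04 and 0.12. PKM, pyruvate kinase, read 17357 against 15950, the highest difference of any compared member at 0.12. LDHA, which turns pyruvate into lactate, read 44459 against 42396, a difference of 0.07.

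Several of these late enzymes were too bright for their differences to be read freely. ENO1, the main enolase, reached the upper end of the scanner's range in each sample, at 65508 against 65509, so its direction cannot be read, although it counts among the 28 lower members. LDHB, the other lactate dehydrogenase subunit, read 58940 in the shATMIN sample and 60547 in the neo control, and GAPDH read 54336 against 55686. Among the 47 compared genes with a mean level over 60000 the median difference was 0 to 2 decimals. Between 20000 and 60000, where 6 members lie, it was -0.15 and 2.86% of genes were 1.5-fold lower, against 17.8% between 1000 and 5000, where 9 members lie. The contrast between early and late enzymes thus coincides with a contrast in brightness. With the trend on level removed the medians were -0.17 for the early and 0.08 for the late enzymes. The trend does not follow the flattening at the ceiling, as it was -0.11 at the level of ENO1. Its removal set ENO1, GAPDH and LDHB at 0.11, 0.08 and 0.07, so these count as higher only through that step. Whether the contrast between early and late enzymes holds apart from brightness was not tested.

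**Figure D2:**
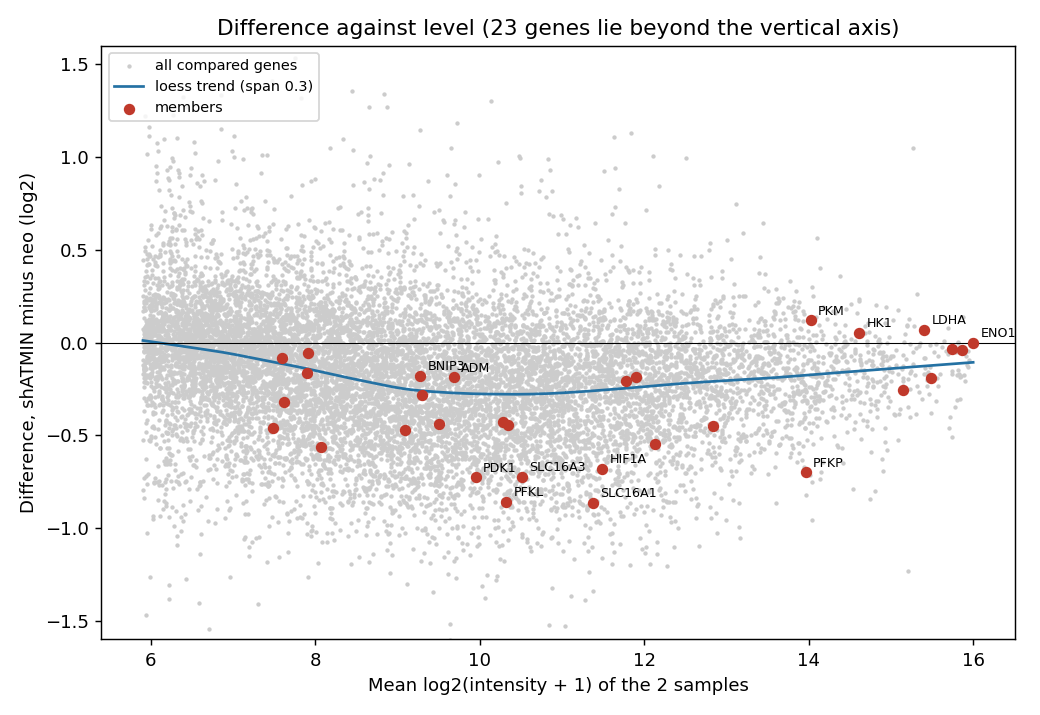
Difference (shATMIN minus neo control, log2) against mean log2(intensity + 1) for the 12421 compared genes (grey, of which 23 lie beyond the vertical axis), with a loess trend in blue and the 31 compared members in red. The trend is lowest at middle levels and returns toward 0 at the bright end, where HK1, LDHA and ENO1 lie, while PFKP stands well below it.

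Both lactate transporters were over 1.5-fold lower in the shATMIN sample. SLC16A1 (MCT1), which moves lactate and pyruvate across the plasma membrane, read 1975 in the shATMIN sample and 3593 in the neo control, a difference of -0.86 or 1.82-fold. Its second probe read 2158 against 2836, a difference of -0.39, short of 1.5-fold. SLC16A3 (MCT4), the lactate exporter of glycolytic and hypoxic cells, read 1136 against 1876 on its only probe, a difference of -0.72 or 1.65-fold.

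BSG, the chaperone (basigin) that brings both of these transporters to the cell surface, is not a member and had the lowest difference in a list whose median was -0.05. It was lower on each of its 2 probes. Its brighter probe read 4236 in the shATMIN sample and 7202 in the neo control, a difference of -0.77, and the other read 1448 against 2286, a difference of -0.66. Of the glucose transporters, SLC2A1 (GLUT1) read 175 against 219, a difference of -0.32. SLC2A3 (GLUT3) was below the level for comparison on both probes, the brighter of which read 45.5 against 48.0.

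HIF1A itself was lower in the shATMIN sample. Its brightest probe read 2273 in the shATMIN sample and 3641 in the neo control, a difference of -0.68 that passes 1.5-fold, and its second probe read 2229 against 2834, a difference of -0.35. EGLN1, the main oxygen-sensing prolyl hydroxylase, read 1109 against 1508, a difference of -0.44, with -0.40 on its second probe. EGLN3, a hypoxia-induced relative, was near the bottom of the scale at 7.50 against 7.

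The transcriptional targets of HIF did not form one picture. PDK1, a kinase that inhibits pyruvate dehydrogenase, read 769 in the shATMIN sample and 1272 in the neo control, a difference of -0.73 or 1.65-fold. BNIP3L, a receptor for the removal of mitochondria, read 462 against 641, a difference of -0.47. These 2 lay well below the median of all genes. The relative BNIP3 read 583 against 660, a difference of -0.18, close to that median.

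VEGFA, the angiogenic growth factor, read 567 in the shATMIN sample and 690 in the neo control, a difference of -0.28, and its dimmer probe gave -0.39. ADM, the vasodilator peptide adrenomedullin, read 769 against 875, a difference of -0.19. NDRG1, a hypoxia- and stress-induced protein, read 3586 against 4072, a difference of -0.18. Both ADM and NDRG1 were close to the median of all genes. P4HA1, a subunit of the collagen prolyl hydroxylase, read 187 against 197, a difference of -0.08, and CA12, a membrane carbonic anhydrase, read 235 against 244, a difference of -0.06.

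CA9, the carbonic anhydrase used as a marker of hypoxic tumour cells, was below the level for comparison at 19.5 in the shATMIN sample and 17.0 in the neo control. ANKRD37, a short ankyrin protein induced by HIF, was also below it at 56.0 against 53.5. No fold is drawn from these dim values. Over the 10 compared hypoxia targets and regulators all 10 were lower, with a median of -0.23. Over all compared genes 70.7% were lower, with a median of -0.16. With the trend on level removed 5 of the 10 were lower and 5 higher, and scaling to the 75th percentile gave the same counts. In a bulk sample, fewer cells of a state and less RNA per cell cannot be told apart.

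**Figure D3:**
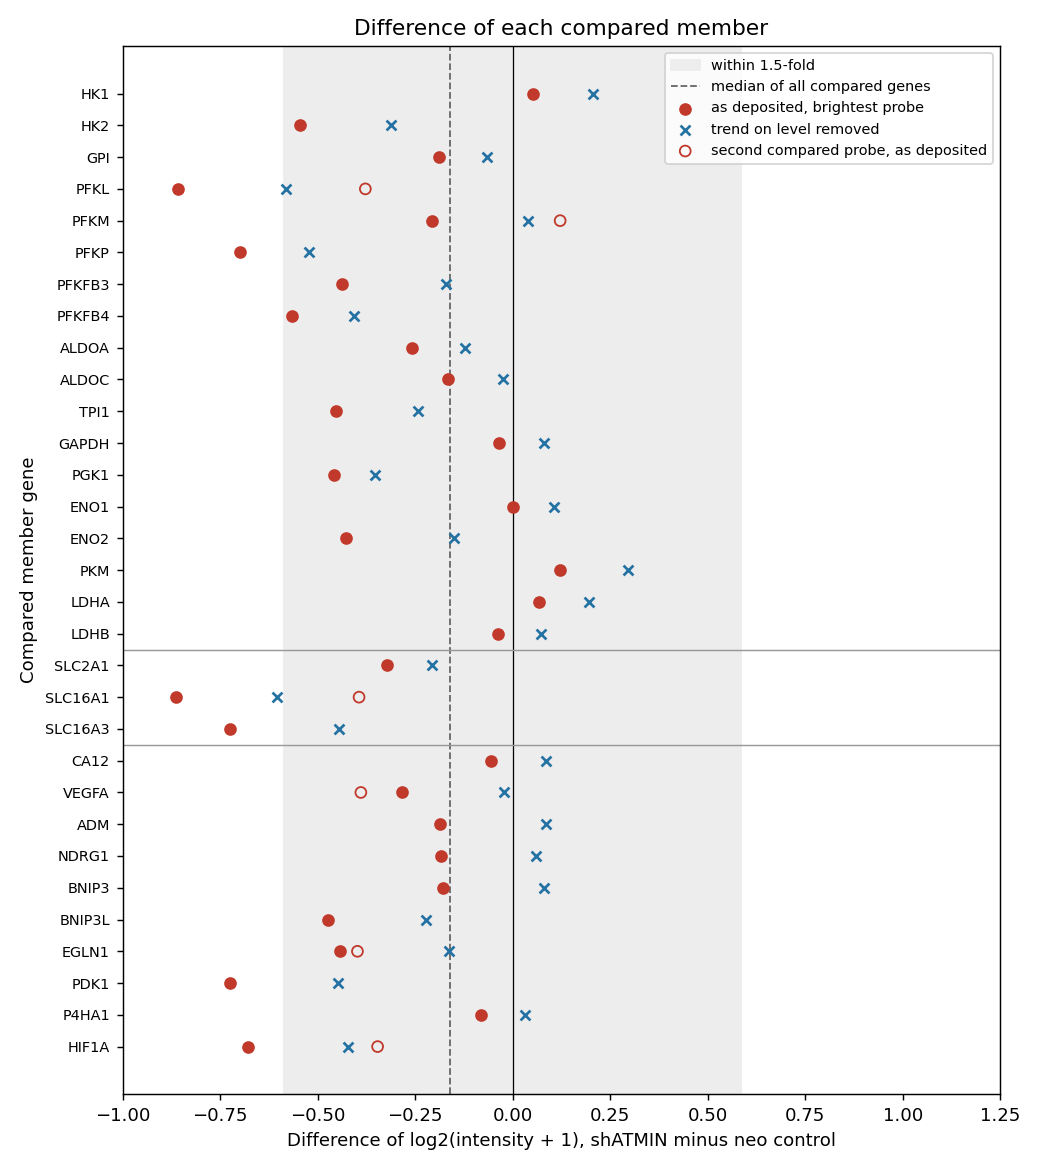
Difference of log2(intensity + 1), shATMIN minus neo control, for the 31 compared members: filled red circles are the brightest probe as deposited, open circles a second compared probe, and blue crosses the brightest probe after a loess trend on level was removed. The grey band is 1.5-fold and the dashed line the median of all compared genes, -0.16; 6 filled circles lie left of the band and 1 cross does.

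The brightness of the whole array differed between the samples, so the members were also set against genes of like level. After removal of a loess trend of the difference on mean level, 19 of the 31 members were lower, against 48.5% of all compared genes, and their median was -0.12. SLC16A1 was then at -0.60 and the 1 member beyond 1.5-fold, with PFKL just short of it at -0.58, PFKP at -0.52, PDK1 and SLC16A3 at -0.45 and HIF1A at -0.42. In this setting 4.63% of all compared genes were 1.5-fold lower and 3.67% higher. PKM stood at 0.30, HK1 at 0.21 and LDHA at 0.20. The hypoxia targets divided evenly, 5 lower and 5 higher, with a median of 0.00. With each sample instead scaled to its 75th percentile, which adds about 0.23 to every difference, 17 of 31 members were lower, against 41.2% of all genes. PFKL and SLC16A1 were then beyond 1.5-fold, where 3.90% of all genes were lower and 5.06% higher.

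A measure of technical spread came from the values themselves. Each deposited intensity has the form of an average over 2 integer readings, each first multiplied by its own factor near 1, and below 2000 that pair can mostly be recovered. From 1000 to 2000 a single pair is less sure. There, wrongly set factors also gave a unique pair for 49.3% of values in the shATMIN sample and 50.9% in the neo control. The labels list 2 arrays per sample, but whether the pair is those arrays is not given. Such readings are technical and do not stand for separate cultures. For PFKL the pair was 933 and 963 in the shATMIN sample and 1591 and 1850 in the neo control. For PDK1 it was 765 and 773 against 1242 and 1302, and for SLC16A3 it was 1037 and 1234 against 1808 and 1944. The neo control values of all 3 genes, and the shATMIN value of SLC16A3, lie in the less sure range. In these 3 genes both readings of the shATMIN sample lay well below both of the neo control. They were picked for a large difference in the averages of these same readings, so the separation is a description only.

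Over the 16 compared members with a recovered pair in both samples, both shATMIN readings lay below both neo control readings in 15. The same held for 52.1% of 9039 genes, and the reverse for 19.6%. The readings were not adjusted for the shift of the array as a whole. The pairs overlapped for CA12, at 229 and 241 in the shATMIN sample against 213 and 275 in the neo control. They barely parted for P4HA1, at 186 and 187 against 187 and 208, and for ALDOC, at 220 and 227 against 228 and 274. The SD within a pair was 0.07 in the shATMIN sample and 0.11 in the neo control over these members (log2 scale). Over the 9039 genes it was 0.12 in each sample. All of these are smaller than the differences of PFKL, PDK1 and SLC16A3, which were picked for their size. The SD describes repeated readings of a sample and not the spread between cultures.

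**Figure D4:**
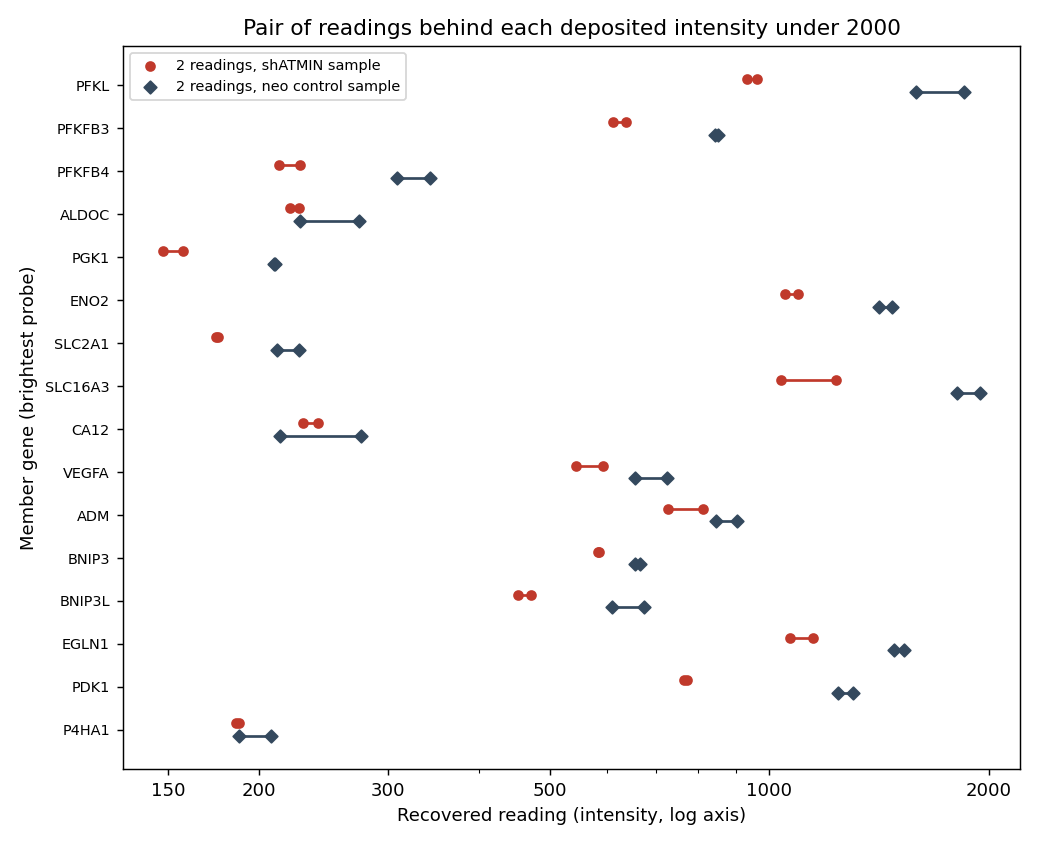
The 2 readings recovered behind the intensity of 16 compared members (horizontal log axis, brightest probe), in the shATMIN sample (red circles) and the neo control (dark diamonds), each pair joined by a line. The pairs are apart in 15 genes and overlap for CA12.

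Probes of the same gene differed by more than readings of the same probe. The 6 members with several compared probes were lower on both probes in 5 cases, all but PFKM, where the same was seen for 51.1% of 2973 genes with several compared probes. However, the 2 probes of PFKL were 0.48 apart, those of SLC16A1 0.47, those of HIF1A 0.33 and those of EGLN1 0.04. The SD between probes of a gene was 0.34 over all genes. All 3 members that reached 1.5-fold and had a second compared probe, PFKL, SLC16A1 and HIF1A, fell short of it on that probe, and PFKP, SLC16A3 and PDK1 rest on 1 probe each.

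Promoter sequence was examined because HIF binds the core ACGTG or GCGTG. The windows are the 250 bases before each transcription start, from RefSeq on GRCh38.p14, in which 31 members matched with 58 windows. SLC2A3, SLC16A1, VEGFA, NDRG1 and BNIP3L were not matched. Both cores were searched on both strands, and a CACGTG counts on each. Windows of 5 members are shown, 5′ to 3′ in the direction of the gene, with the cores in capitals: SLC16A3 and PDK1, which were over 1.5-fold lower, LDHA and BNIP3, which were not, and CA9, which was too dim.
SLC16A3, chr17:82228792-82229041, plus strand: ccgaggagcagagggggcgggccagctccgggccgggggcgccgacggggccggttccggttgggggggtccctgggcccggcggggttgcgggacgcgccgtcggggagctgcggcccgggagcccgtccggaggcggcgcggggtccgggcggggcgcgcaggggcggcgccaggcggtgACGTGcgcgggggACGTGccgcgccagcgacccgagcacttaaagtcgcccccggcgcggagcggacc
PDK1, chr2:172555840-172556089, plus strand: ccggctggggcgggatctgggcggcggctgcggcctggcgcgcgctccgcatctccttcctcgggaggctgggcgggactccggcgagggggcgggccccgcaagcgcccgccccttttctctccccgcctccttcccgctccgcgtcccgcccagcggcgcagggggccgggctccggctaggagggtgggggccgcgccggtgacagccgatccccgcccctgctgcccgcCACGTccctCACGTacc
LDHA, chr11:18394313-18394562, plus strand: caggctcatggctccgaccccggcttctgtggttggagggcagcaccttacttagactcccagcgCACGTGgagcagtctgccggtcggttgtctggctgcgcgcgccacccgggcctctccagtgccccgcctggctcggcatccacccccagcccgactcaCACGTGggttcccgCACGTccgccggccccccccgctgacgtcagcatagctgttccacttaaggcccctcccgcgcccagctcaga
BNIP3, chr10:131981924-131982173, minus strand: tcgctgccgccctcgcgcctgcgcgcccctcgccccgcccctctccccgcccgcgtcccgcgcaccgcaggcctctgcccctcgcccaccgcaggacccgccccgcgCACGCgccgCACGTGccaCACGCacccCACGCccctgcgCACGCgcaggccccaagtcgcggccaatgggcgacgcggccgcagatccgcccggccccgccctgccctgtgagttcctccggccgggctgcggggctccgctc
CA9, chr9:35673678-35673927, plus strand: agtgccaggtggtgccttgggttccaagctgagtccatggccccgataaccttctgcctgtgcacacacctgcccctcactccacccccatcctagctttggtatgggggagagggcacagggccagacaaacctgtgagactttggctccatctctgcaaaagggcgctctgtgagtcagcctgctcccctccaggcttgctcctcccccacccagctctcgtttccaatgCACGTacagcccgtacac
Where a gene had several windows, the one with the most ACGTG matches, then the most cores, is shown. That all 5 windows hold a core thus follows in part from this choice, and the other PDK1 window holds 0. In the windows shown, the cores of SLC16A3, PDK1 and CA9 stand toward the transcription start, at the end of the line. The cores of LDHA and BNIP3 begin further upstream.

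A core was present in 34 of the 58 member windows, or 58.6%, against 53.5% of the windows of all compared genes and 43.2% of all windows. Counted by gene, 26 of the 31 matched members had a core in at least 1 window, or 83.9%, against 62.8% of 10144 compared genes and 47.4% of all genes with a window. Genes with more windows have more chances of a match, and the members had 58 windows for 31 genes against 14670 for 10144 compared genes. The median GC content was 68.4% in member windows and 64.0% in those of compared genes. The part of base content in the share with a core was not tested. Of the compared members, 24 had a core in at least 1 window and a median difference of -0.34. The 3 without had a median of -0.04 but lay far apart, PKM at 0.12, LDHB at -0.04 and SLC2A1 at -0.32. LDHB is also among the late enzymes given above as too bright for their differences to be read freely. These 3 genes are too few and too spread to set against the 24, and the part of a core in the differences was not tested. Over all compared genes the medians were -0.19 with a core and -0.13 without. Over all their windows SLC16A3, LDHA and BNIP3 held 6 cores each, at differences of -0.72, 0.07 and -0.18, and PDK1 held 2, at -0.73. A match is a string of letters and not a binding site.

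The other genes of the pathway were taken from 7 lists. Of 19 HIF factors and oxygen sensing genes 17 were compared and 14 were lower, with a median of -0.35, and 3 were 1.5-fold lower. These shares are 82.4% and 17.6%, against 70.7% and 12.2% of all compared genes. The median was -0.08 with the trend on level removed and -0.12 with scaling to the 75th percentile, with 11 lower in each. ARNT, the obligate partner of HIF1A, was the lowest, with an intensity of 329 under shATMIN and 604 in the neo control, a difference of -0.87. The ubiquitin ligase genes SIAH1 and SIAH2, which act on EGLN proteins, were at -0.64 and -0.62, and ARNT2, a relative of ARNT, was at -0.57. SIAH1 read only 59.5 in the shATMIN sample and 93.0 in the neo control, near the level needed for comparison. EPAS1, the other main alpha subunit, read 10936 against 10575, a difference of 0.05, and its dimmer probe gave -0.51.

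Among 31 compared of 36 further hypoxia targets 20 were lower and 11 higher, with a median of -0.08, and 5 were 1.5-fold lower and 0 higher. The lower genes made up 64.5% and those 1.5-fold lower 16.1%, near the 70.7% and 12.2% of all compared genes. With the trend on level removed 14 were lower and 17 higher, and with scaling to the 75th percentile 13 and 18. BHLHE41, a repressor of the clock and hypoxia response, read 54.5 in the shATMIN cells and 134 in the neo control, a difference of -1.28, and so reached the level for comparison only through the neo control. PLOD2, a collagen lysyl hydroxylase, read 2144 against 4697, a difference of -1.13. ERO1A, an oxidase of the endoplasmic reticulum, was at -0.76 on 1 probe and 0.24 on another, and the kinase gene RIOK3 at -0.67. PLOD2 was thus lower than any member, while the median of the list lay above that of all genes.

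The routes that branch from glycolysis were mostly close to the array as a whole. All 14 compared genes of the pentose phosphate and glycogen routes were lower, with a median of -0.19 and against 70.7% of all compared genes. With the trend on level removed 8 were lower and 6 higher, and with scaling to the 75th percentile 6 and 8. PYGB, the brain type glycogen phosphorylase, was the 1 beyond 1.5-fold, with 2867 in the shATMIN sample and 4650 in the neo control, a difference of -0.70. RPIA, GYS1 and PGD followed at -0.57, -0.50 and -0.30. Of 12 compared genes of pyruvate entry and pyruvate dehydrogenase 8 were lower, or 66.7% against 70.7% of all compared genes, with a median of -0.07. With the trend on level removed 5 were lower and 7 higher, and scaling to the 75th percentile gave the same counts. The phosphatase gene PDP2, whose product counteracts PDK1, was at -0.65, and the complex components DLAT and PDHX were at -0.54 and -0.53. Among the other isoenzymes and side steps of glycolysis 11 of 13 were lower with a median of -0.25, led by the ADP-dependent glucokinase gene ADPGK at -0.58. This is 84.6% lower, against 70.7% of all compared genes. With the trend on level removed 7 were lower and 6 higher, with a median of -0.01, and with scaling to the 75th percentile 8 and 5. Of 3 compared genes of gluconeogenesis 2 were lower, PCK2 at -0.38 and G6PC3 at -0.28. Of 14 compared genes of other glucose and lactate transport, the list that holds BSG, 8 were lower and 6 higher, with a median of -0.05, and 2 were 1.5-fold lower and 1 higher. The lower genes made up 57.1% and those 1.5-fold lower 14.3%, against 70.7% and 12.2% of all compared genes. Over these 7 lists together 77 of 104 compared genes were lower, with a median of -0.16, the same to 2 decimals as over all genes.

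**Figure D5:**
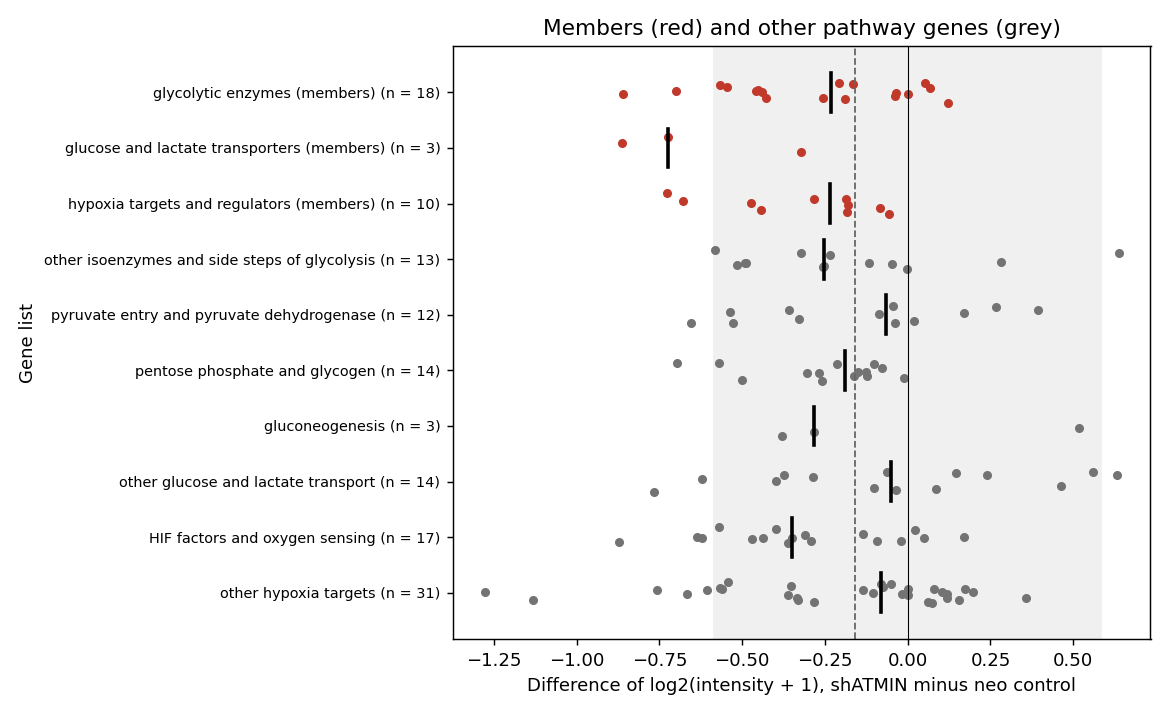
Difference of log2(intensity + 1), shATMIN minus neo control, of the compared genes of each list (points, jittered vertically), with members in red, other pathway genes in grey and the median of each list as a black bar. The dashed line is the median of all compared genes, -0.16, and the grey band is 1.5-fold; the 3 transporters have the lowest median, -0.72.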

How the data were processed

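RNA of 1 shATMIN sample and 1 neo control sample of SAS cells was amplified and labelled with Cy5 for 1-colour arrays, per the labels' protocols. The authors deposited 1 linear intensity per probe and sample, as read from the values, with negative values in each sample. How the arrays were scanned, corrected and normalized is not stated in the labels, and no scaling between the samples was visible. The number of columns that belong to no sample was 0.

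Gene symbols were read from the platform's annotation and brought up to date with RefSeq (GRCh38.p14). Exactly 1 gene was named by 24740 of the 31741 probes, several by 977 and none by 6024. Negative intensities were raised to 0 before log2(intensity + 1) was taken. The brightest probe stood for a gene, and the gene was compared if that probe's mean was at or above the 40th percentile over probes. The members and lists were chosen with earlier results of these data known. All members are named, with up to 4 genes of greatest absolute difference per other list. EPAS1, the second probes of other genes and the single cell type markers given by value were chosen after their values were seen.

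Pairs of readings, a step chosen after seeing the data, were resolved uniquely for 99.4% and 99.3% of intensities from 2 to 1000 in the shATMIN sample and the neo control, and for 99.6% and 99.9% from 1000 to 2000. A wrong step resolved 10.3% and 9.77% in the lower range but 49.3% and 50.9% in the upper one, where single pairs are less sure. Pairs over 4-fold apart, or over 2-fold above 1000, were not sought. The calculations were tested on simulated data. Loess had a span of 0.3 (statsmodels 0.14.6). Figures were drawn with matplotlib 3.10.9, and tables handled with NumPy 2.4.6 and pandas 2.3.3 under Python 3.11.15.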

Additional observations from a re-analysis of the deposited data

How the results depend on the processing

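The alternatives were scaling to the 75th percentile, quantile normalization, removal of the trend on level, a pseudocount of 16, no filter on dim genes, the mean of all probes of a gene, and leaving out probes over 60000. The scalings moved most summaries. The median of all members was -0.0492 with scaling to the 75th percentile, -0.0696 with quantile normalization and -0.12 with the trend removed, against -0.28 as deposited. In the same order the median of the enzymes was 0.00175, -0.0603 and -0.0940 against -0.23, that of the transporters -0.49, -0.46 and -0.45 against -0.72, that of the hypoxia genes -0.00139, -0.00796 and 0.00459 against -0.23, and that of all compared genes 0.0730, 0.00222 and 0.0117 against -0.16. The members 1.5-fold lower numbered 2, 2 and 1 against 6, and 17 members were lower with scaling to the 75th percentile against 28. Over all compared genes 485, 613 and 575 were 1.5-fold lower against 1517, and 628, 445 and 456 higher against 236. Without the dim filter 568 genes were 1.5-fold higher and the transporter median was -0.52. Without probes over 60000 the enzyme median was -0.34. The differences of single members and ATMIN moved by less than the SD between probes, 0.34, in all 221 recalculations, and no member 1.5-fold lower changed sign. Much of this was fixed by the settings, so the count does not support the single values. Scaling to the 75th percentile adds about 0.23, and the settings on dim and bright probes left single differences as they were. The mean of all probes changes only genes with several. The cause of the shifts in the summaries was not tested beyond the constant that scaling adds. No paired analysis was possible because each group holds 1 sample. Bright probes near the top of the scale and dim ones under 58.9 limit what can be read.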

Other observations

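Against the general shift, some genes of glucose handling were higher in the shATMIN sample. FBP1, the fructose bisphosphatase that opposes phosphofructokinase in gluconeogenesis, read 704 in the shATMIN sample and 492 in the neo control, a difference of 0.52 on its only probe. The recovered pairs were 679 and 729 against 469 and 515. PKLR, the pyruvate kinase of liver and red cells, read 1030 against 662, a difference of 0.64, with pairs of 824 and 1236 against 631 and 692, but its other compared probe gave -0.11. SLC2A9, a transporter of urate and glucose, read 180 against 115, a difference of 0.63, with pairs of 172 and 187 against 113 and 118. SLC2A5, the fructose transporter, read 232 against 157, a difference of 0.56, with pairs of 232 and 232 against 149 and 165. These genes are named because their differences were among the greatest of their lists, so the separation of their pairs is a description only. SLC2A6, in the same family, was lower at 260 against 400, a difference of -0.62. After the trend on level was removed FBP1, PKLR, SLC2A9 and SLC2A5 stood at 0.77, 0.91, 0.71 and 0.67. PDP1, the relative of PDP2, was at 0.39, with pairs of 1053 and 1580 against 846 and 1159 that overlap.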
